A study of Arabidopsis thaliana with 4 samples.

Results

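The genes described here are the 4 plastid genes for subunits of the bacterial-type RNA polymerase (rpoA, rpoB, rpoC1 and rpoC2), clpP and accD. They were selected by name from the genes that the annotation places on the plastid chromosome, with no signal value in the rule, but with earlier results of these data known. All 6 such genes of the annotation had a probe set, 1 each, among 69 plastid genes with a single-gene probe set and 22589 probe sets tested. Whole Arabidopsis thaliana plants grown on agar plates were profiled with 4 Affymetrix arrays in 1 colour. Of these, 2 carried RNA of ppi2 mutants aged 20 days and 2 RNA of wild-type plants aged 10 days. The ppi2 mutation disrupts TOC159, a receptor for the import of proteins into chloroplasts, and the mutant plants are pale. Genotype and age differ together between the groups and cannot be told apart. The growth and labelling protocols were the same for both groups, and neither group had a special treatment.

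Plastid genes are read by 2 kinds of RNA polymerase. One resembles a bacterial enzyme, and its core is encoded by rpoA, rpoB, rpoC1 and rpoC2 in the plastid itself. The other is a phage-type enzyme encoded in the nucleus, which is known for transcribing the rpoB operon and accD and shares clpP with the bacterial-type enzyme. Genes of the photosystems depend largely on the bacterial-type enzyme. In plastids where that enzyme is impaired, messages of rpo genes, clpP and accD are known to accumulate while photosystem messages are scarce. clpP encodes a proteolytic subunit of the Clp protease of the chloroplast stroma, and accD a subunit of the carboxylase that makes malonyl-CoA for fatty acid synthesis.

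The arrays did not group by their labels, which touches every value below. Across the 13604 probe sets with a mean signal of at least 124, called brighter below, the array labelled ppi2 replicate 1 was closest to wild type replicate 2 (r = 0.981), and ppi2 replicate 2 to wild type replicate 1 (r = 0.953). The other 4 pairs had r from 0.798 to 0.823, across genes, which are not independent replicates. No probe set was assigned to TOC159 in the annotation used, so the labels were not checked against the mutated gene. Whether labels were exchanged within a replicate number was not tested. All differences and signs below follow the labels as given, and an exchange would turn those within that number. It would also regroup the arrays, with ppi2 replicate 1 and wild type replicate 2 together against the others. The labelled differences, their errors and the counts of calls therefore hold only for the labels as given. Of the markers fixed for tissues, 2 of 5 for roots were measured, at 71.8 to 178, and 0 of 11 for green shoots, seeds and flowers, so the whole-plant label was hardly checked. Differences are therefore given between the labelled groups, with the test, and also within each replicate number, where 1 array stands for each group and no test exists. With RNA from whole plants, fewer green cells and less plastid RNA per cell cannot be told apart. Signals are the deposited MAS5 intensities on a linear scale, and log2 differences were taken after adding 7.99 to every signal, so they understate changes of dim genes.

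**Figure D1:**
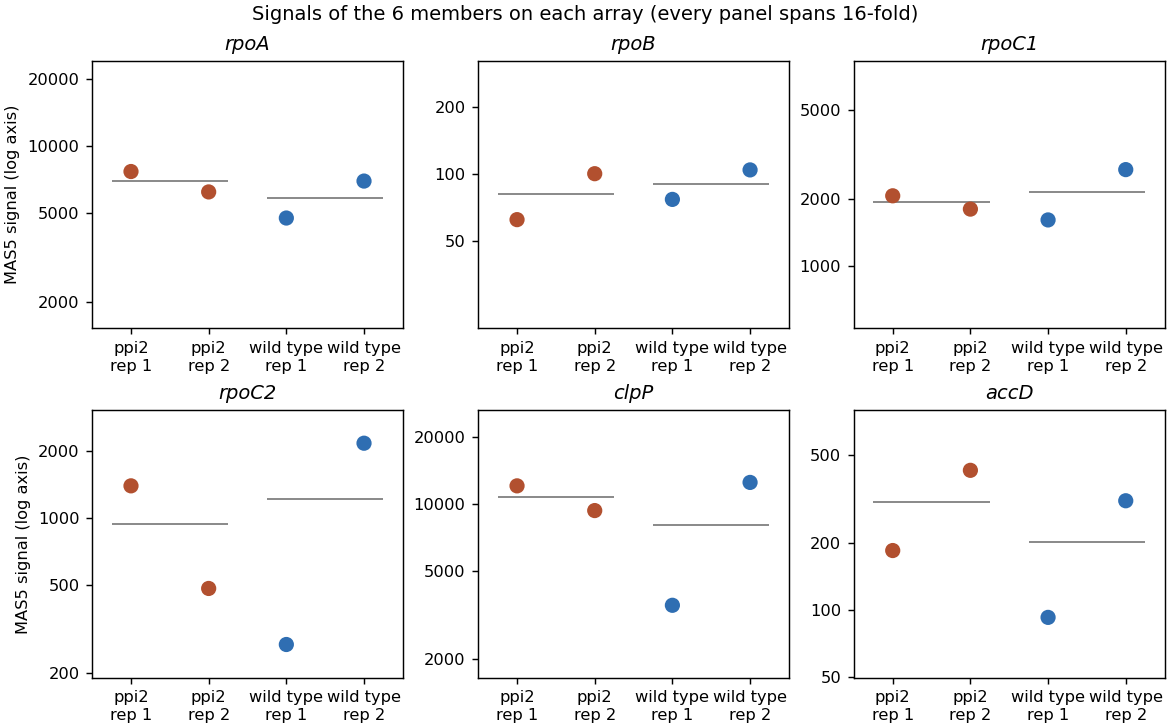
MAS5 signal (log axis) of each of the 6 genes on each of the 4 arrays, with every panel spanning the same range of folds and grey lines at the mean of the 2 arrays of a group. The range is widest for rpoC2 (8.05-fold between arrays) and narrowest for rpoA (1.62-fold), and in every panel the signals of the labelled groups overlap.

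Between the labelled groups none of the 6 genes differed beyond the spread of the arrays. In the limma fit over all 22589 probe sets, 0 passed an adjusted p of 0.05 (0% of those tested), 282 had an unadjusted p under that value, and all 6 genes had adjusted p = 1. Signals of the groups overlapped for all 6, while 19.7% of all probe sets had groups that did not overlap. The intervals are wide, so these p-values do not show that the genes were alike in both groups.

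The 3 genes of the rpoB operon lie next to each other and are known to be transcribed together, but their signals differed in range or order. rpoC2 and rpoC1 ranked the arrays in the same order, over 8.05-fold and 1.68-fold, while the dim rpoB ranked them otherwise. rpoC2, for the β″ subunit, read 1394 on ppi2 replicate 1, 481 on ppi2 replicate 2, 269 on wild type replicate 1 and 2169 on wild type replicate 2. Signals of other genes follow in the same order, as ppi2 replicates 1 and 2 against wild type replicates 1 and 2. rpoC2 was high on ppi2 replicate 1 and wild type replicate 2 and low on the other arrays, so each labelled group held 1 high and 1 low array. The group means were 937 ± 646 and 1219 ± 1340 (SD, n = 2), with a log2 difference of 0.09 ± 1.05 (SE, 95% interval -2.57 to 2.75, limma adjusted p = 1).

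Within replicate 1, rpoC2 was 5.17-fold higher on the ppi2 array, and within replicate 2 it was 4.51-fold lower on it. In log2 terms these are 2.34 and -2.16, the highest of the 69 plastid genes in the first and the lowest in the second on this scale. The plain signal ratios of the dim gene petN were larger in both. A pattern of at least 2-fold higher and then at least 2-fold lower was seen for 4.98% of all probe sets, and rpoC2 was the only one of the 6 genes to show it. Its 8.05-fold range over the arrays exceeded that of 97.9% of the brighter probe sets, on the log2 scale. Without wild type replicate 1 the labelled difference was -1.40 and without wild type replicate 2 it was 1.58. Leaving out ppi2 replicate 1 gave -0.67 and leaving out ppi2 replicate 2 gave 0.85, so its sign followed which array was absent.

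rpoC1, for the β′ subunit, read 2064 and 1798 against 1607 and 2708. All 4 arrays lay within 1.68-fold of each other, with wild type replicates 1 and 2 at the ends. The labelled log2 difference was -0.11 ± 0.35 (SE, 95% interval -1.0 to 0.77, limma adjusted p = 1), and it was 0.26 without wild type replicate 2, -0.49 without wild type replicate 1, -0.21 without ppi2 replicate 1 and -0.02 without ppi2 replicate 2. Within replicates 1 and 2 the log2 differences were 0.36 and -0.59, in the same order of signs as rpoC2 but a fraction of its size.

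rpoB, for the β subunit, was dim, with 62.1 and 100 against 76.6 and 104. Its mean signal of 85.8 lay under 124, the 40th percentile of all probe sets, and it was the one gene of the 6 that such a filter would remove. Both replicate 2 arrays were above both replicate 1 arrays, and the log2 differences within replicates 1 and 2 were -0.27 and -0.06. The first became 0.30 after quantile normalization, so rpoB has no settled direction within replicate 1. The labelled difference was -0.16 ± 0.60 (SE, 95% interval -1.67 to 1.34, limma adjusted p = 1), with 0.06 after quantile normalization, 0.15 without ppi2 replicate 1, 0.04 without wild type replicate 2, -0.48 without ppi2 replicate 2 and -0.37 without wild type replicate 1.

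The next gene beyond rpoC2 in map order, rps2 for a ribosomal protein, had within-replicate log2 differences of 0.64 and -0.40. The next beyond rpoB, petN for a small subunit of the cytochrome b6f complex, had 2.18 and -1.80. petN was dim, at 63.9 and 8.59 against 7.82 and 49.9, and its low signals lay near the 7.99 added before log2, which therefore sets the size of its differences. Whether the probes of the 3 operon genes report the same transcripts equally well was not tested.

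rpoA, for the α subunit, lies apart from the others beside a cluster of ribosomal protein genes. It read 7702 and 6233 against 4755 and 6976, the narrowest range of the 6 genes at 1.62-fold, with wild type replicate 1 lowest and the other 3 arrays within 1.24-fold. Its log2 difference between the labelled groups was 0.27 ± 0.39 (SE, 95% interval -0.71 to 1.24, limma adjusted p = 1). It was -0.01 without wild type replicate 1, 0.54 without wild type replicate 2, 0.42 without ppi2 replicate 2 and 0.11 without ppi2 replicate 1. Within replicates 1 and 2 the log2 differences were 0.69 and -0.16, the latter -0.37 after quantile normalization. The neighbours on either side differed from one another: rpl36, for a ribosomal protein, had 0.88 and -0.23, close to rpoA, while petD, of the cytochrome b6f complex, had -0.99 and 0.30.

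clpP was low on 1 array. It read 12032 and 9312 against 3487 and 12468, so wild type replicate 1 was the single low array and the other 3 lay within 1.34-fold of each other. The labelled log2 difference was 0.68 ± 0.68 (SE, 95% interval -1.04 to 2.40, limma adjusted p = 1). Without wild type replicate 1 it was -0.24 and without wild type replicate 2 it was 1.60, while it was 0.50 without ppi2 replicate 1 and 0.87 without ppi2 replicate 2.

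The low clpP signal stood out among the brighter probe sets even against the array that wild type replicate 1 most resembled. clpP was 2.67-fold higher on ppi2 replicate 2 than on wild type replicate 1, a difference exceeding that of 98.8% of the brighter probe sets between these arrays, whose median fold was 1.2. The median signal of the 69 plastid genes was also higher on ppi2 replicate 2 (3137) than on wild type replicate 1 (1574). Some plastid genes, such as psbD (2255 against 305), differed more than clpP, so a large fold in this pair was not particular to clpP. Between ppi2 replicate 1 and wild type replicate 2, the other similar pair, clpP differed by 1.04-fold. Within replicates 1 and 2 the log2 differences of clpP were 1.78 and -0.42, the latter -0.83 after quantile normalization. The next gene after it, psbB for a core antenna protein of photosystem II, had -1.73 and 2.0, opposite to clpP in both. The nearest measured gene before it, rpl20 for a ribosomal protein, had 0 and -0.24.

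accD was higher on both arrays of replicate 2. It read 185 and 425 against 92.5 and 310, so that within each replicate number the ppi2 array was above the wild type array (log2 differences 0.94 and 0.45). The same sign, higher in both, was seen for 12.4% of all probe sets and for 1 of the 6 genes. Between the labelled groups the log2 difference was 0.69 ± 0.73 (SE, 95% interval -1.15 to 2.53, limma adjusted p = 1). It was -0.14 without wild type replicate 1, 1.52 without wild type replicate 2, 0.11 without ppi2 replicate 2 and 1.28 without ppi2 replicate 1.

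As with clpP, the lowest accD signal was on wild type replicate 1, and accD was 4.6-fold higher on ppi2 replicate 2. That difference exceeded the one of 99.7% of the brighter probe sets between these arrays. Some plastid genes, such as psbD (2255 against 305) and psbC (14842 against 3167), differed more, so a fold of this size was not particular to accD. Between ppi2 replicate 1 and wild type replicate 2 accD differed by 1.68-fold, above 97.4% of the brighter probe sets. The median fold there was 1.11. In this pair too some plastid genes differed more than accD, such as psbC (1129 against 3791), psbD (120 against 342) and rps15 (141 against 583). rpoB had the same fold of 1.68 in that pair, while in the other it differed by 1.31-fold. rpoA differed by 1.31-fold and 1.10-fold in the same pairs. The neighbours of accD are rbcL, for the large subunit of Rubisco, and psaI, of photosystem I. They had within-replicate log2 differences of -0.36 and 1.11, and of -0.82 and 0.65. Here accD is set beside these neighbours. All 3 were higher on ppi2 replicate 2 than on the other arrays, but accD alone of them was lowest on wild type replicate 1, with rbcL and psaI lowest on ppi2 replicate 1.

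**Figure D2:**
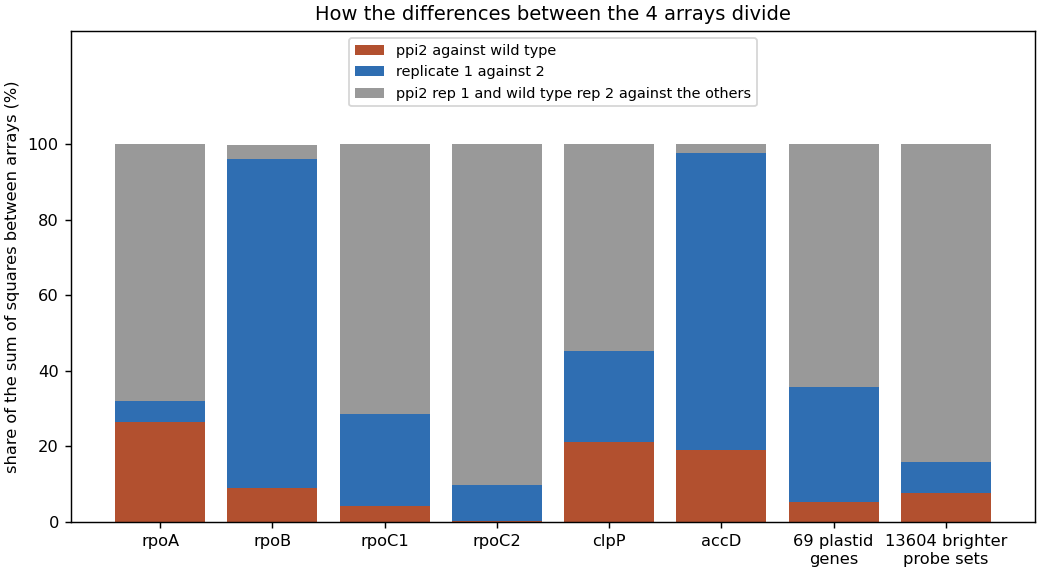
Stacked bars give, in percent, how the sum of squares of log2 signals between the 4 arrays divides among the labelled groups, the replicate numbers and the crossed contrast, which sets ppi2 replicate 1 plus wild type replicate 2 against the remaining arrays. The last contrast holds 90.4% for rpoC2 but 2.40% for accD, for which the replicate numbers hold 78.7%.

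The spread of each of the 6 genes between arrays was divided among 3 contrasts. With 4 arrays, the sum of squares of a gene's log2 signals splits fully into the labelled groups, the replicate numbers and a crossed contrast, in which ppi2 replicate 1 plus wild type replicate 2 stand against the remaining arrays. The crossed contrast held the largest part for rpoC2 (90.4%), rpoC1 (71.6%), rpoA (68.1%) and clpP (54.8%). The replicate numbers held the largest part for rpoB (87.4%) and accD (78.7%). By the same measure the crossed contrast was largest for 56.5% of plastid genes, 69.4% of the brighter probe sets and 59.8% of all. The replicate numbers were largest for 40.6%, 16.3% and 20.5% of them, so the 6 genes divided much as plastid genes did. The labelled groups held at most 26.3%, for rpoA, and 0.15% for rpoC2. Summed over the 69 plastid genes, the shares of labelled groups, numbers and crossed contrast were 5.16%, 30.4% and 64.5%, and over the brighter probe sets 7.47%, 8.45% and 84.1%. Over all 22589 probe sets, dim ones included, they were 20.5%, 19.9% and 59.7%.

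Control probe sets also moved with the replicate number and with the crossed contrast. The 24 spiked poly-A controls had medians of 1575 and 477 against 2386 and 481, so they were brighter on the replicate 1 arrays, where rpoB and accD were lower. The 18 hybridisation controls had medians of 840 and 1669 against 1514 and 1106, lower on the arrays where rpoC2 was high. The GAPDH 3′ to 5′ signal ratio was highest on wild type replicate 1 (2.62, against 1.63 to 1.96), the array where clpP, accD, rpoA, rpoC1 and rpoC2 were all lowest. The actin 3′ to 5′ ratio was instead highest on ppi2 replicate 1 (38.8 and 26.8 against 34.0 and 30.7). The 25S ribosomal RNA probe set read 19.9 and 77.5 against 5.68 and 101, and was thus lower on the replicate 1 arrays. The part of these in the signals of the 6 genes was not tested. Plastid messages mostly lack the long poly-A tails of nuclear messages, and the share of them that was labelled is not known here.

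**Figure D3:**
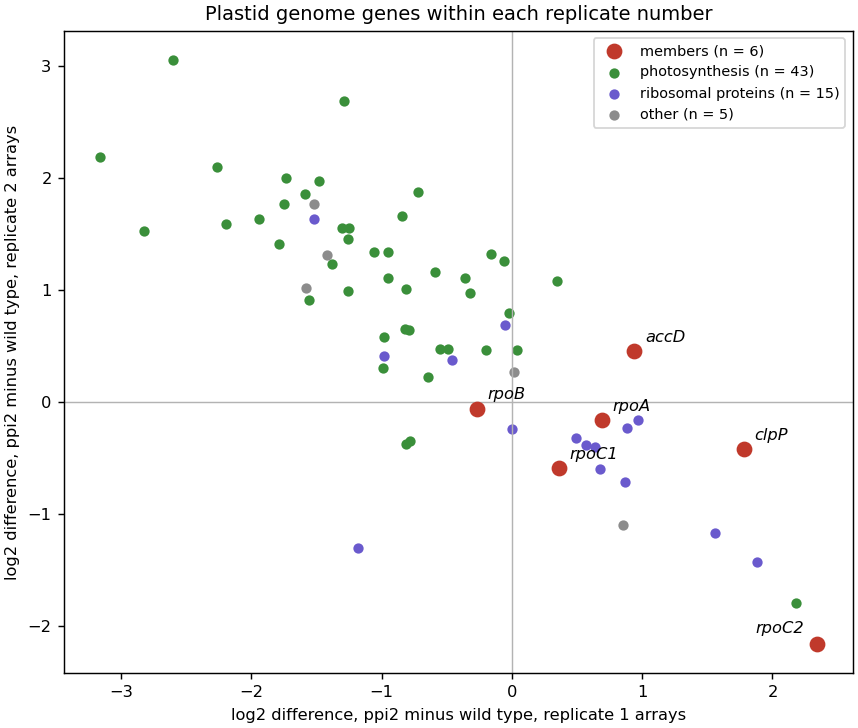
Each point is 1 of 69 plastid genes, with the log2 difference between the ppi2 and wild type arrays of replicate 1 on the x axis and of replicate 2 on the y axis, coloured by class. rpoC2 lies at the lower right end (2.34 and -2.16), accD alone of the 6 genes lies in the upper right part (0.94 and 0.45), and most photosynthesis genes lie at the upper left.

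Set against the other plastid genes, 4 of the 6 had the order of signs that most ribosomal protein genes had, and accD and rpoB had another. Of the 6, 4 were higher within replicate 1 and lower within replicate 2 (rpoA, rpoC1, rpoC2 and clpP), where 31.8% of all probe sets were, 1 (accD) was higher in both and 1 (rpoB, before quantile normalization) was lower in both, as were 17.4% of all probe sets. None was lower and then higher, the order seen for 38.3% of all probe sets and for 38 of 43 photosynthesis genes (psa, psb, pet, atp, ndh and rbcL). The 15 ribosomal protein genes held 10 that were higher then lower and 0 that were higher in both, the order of accD. Medians of the log2 differences were 0.82 and -0.29 for the 6 genes, 0.57 and -0.32 for the ribosomal protein genes, -0.95 and 1.23 for the photosynthesis genes and -0.12 and 0.01 for all probe sets. The classes follow gene names, and no difference between them was tested.

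Relative to the median plastid gene on each array, all 6 genes had the same order of signs. This centring, chosen after the data were seen, adds 0.48 to each difference within replicate 1 and subtracts 1.04 within replicate 2. It thus moves every gene toward a positive and then a negative difference. Photosynthesis genes, 43 of the 69, largely set the plastid median. rpoC2 then had log2 differences of 2.81 and -3.20, clpP 2.26 and -1.46, accD 1.42 and -0.59, rpoA 1.17 and -1.20, rpoC1 0.84 and -1.63 and rpoB 0.21 and -1.10. The same order, a positive and then a negative difference after this centring, was found for 12 of 15 ribosomal protein genes, 5 of 43 photosynthesis genes and 25 of all 69. The sign of accD within replicate 2 and that of rpoB within replicate 1 thus depend on whether the plastid median or the whole array is the reference. A ratio of this kind shows unequal change among plastid genes and not which of them changed.

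**Figure D4:**
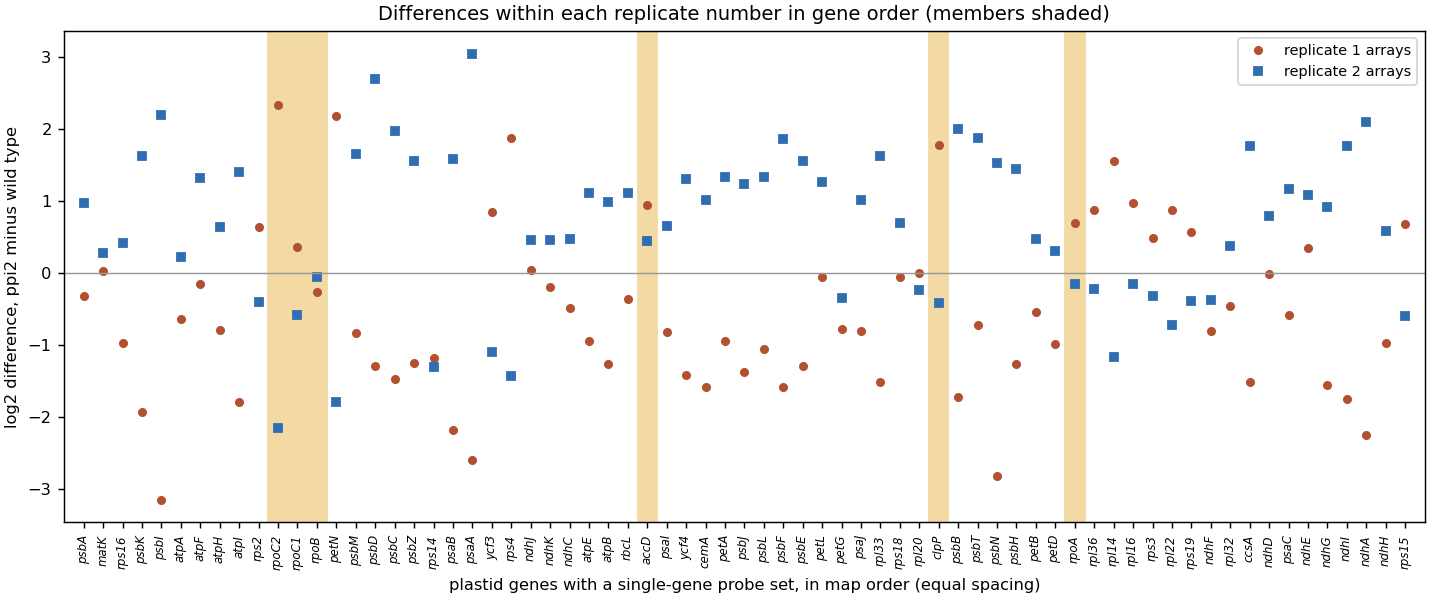
Log2 differences between the ppi2 and wild type arrays within replicate 1 (circles) and replicate 2 (squares) for 69 plastid genes in map order at equal spacing, with the 6 genes shaded. accD stands between photosynthesis genes with the circle below 0, clpP has the circle far above the square with psbB the other way round, and rpoA borders on a run of ribosomal protein genes with the circles above the squares.

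Likeness to other genes was measured as the distance between log2 profiles over the 4 arrays, each centred on its own mean, where 0 is an identical profile. Among plastid genes rpoC2 was nearest to rps4 (distance 0.768), a ribosomal protein gene with 20849 and 7922 against 5653 and 21288, followed by petN (0.889) and rpl14 (0.996). rpoA and rpoC1 were each nearest to rps3 (0.211 and 0.325) and lay 0.412 from one another. clpP was nearest to rpl36 (0.660) and rpl16 (0.689), and accD to rpl16 (0.559), which read 7217 and 10178 against 3693 and 11402. rpoB was nearest to matK (0.314), a plastid gene for an intron maturase, and then to atpA (0.346), for a subunit of the ATP synthase. Of the 6 genes themselves, rpoA and rpoC1 were closest, and rpoB and rpoC2, of the same operon, were the farthest apart (2.38). Profiles were not scaled, so the distance follows the size of the changes as well as the order of the arrays. rpoC1 and rpoC2, which ranked the arrays alike, lay 1.84 apart.

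Among the other brighter single-gene probe sets of all chromosomes (7238 for rpoB and 7237 for each of the other members), the nearest was a nuclear gene for each of the 6. rpoC2 was nearest to AT4G18280 (0.099), with 1921 and 690 against 352 and 2937, then to AT4G15260, AT1G20490 and AT1G56660 (0.245 to 0.314). clpP was nearest to TET5 (0.165), with 230 and 161 against 64.8 and 253, then to AT3G27400, AT5G23330 and AT1G23460 (0.187 to 0.227). The nearest to accD were hemf2 (0.529), rpl16, AT1G72140 and AT3G50300 (0.572 and 0.579), so the nearest profile to accD was farther away than those nearest to the other 5 genes. rpoA was nearest to AT3G49810 (0.0458), rpoC1 to AT4G05400 (0.0437) and rpoB to AT2G30460 (0.0613). With 4 arrays and this many candidates, some profile lies close to most patterns, and these distances were not tested.

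Few nuclear partners of the 6 genes could be read. The lists of partners were made by hand, and apart from CLPP4 the annotation used gives their measured members no name. Of 15 nuclear Clp protease subunits and associated proteins 6 were measured, of 9 subunits and associated proteins of acetyl-CoA carboxylases 3, and of 3 phage-type RNA polymerases 1. The 6 sigma factors and 13 polymerase-associated proteins were not analysed here. In the limma fit 0 of the 10 measured genes passed in either direction (adjusted p = 1 for each), where 0% of all probe sets did, so these values do not show that the partners were steady.

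All 6 measured genes of the nuclear Clp list were lower within replicate 1 and higher within replicate 2, as 38.3% of all probe sets were, while the plastid-encoded clpP was higher and then lower. Their median log2 differences were -0.33 and 0.48. CLPP4, another proteolytic subunit, read 2407 and 3617 against 2484 and 2606, with log2 differences of -0.05 and 0.47 and a highest signal on ppi2 replicate 2. AT4G12060 varied most, with 596 and 1208 against 1408 and 667. Of the 3 carboxylase list members, AT3G56130 read 749 and 805 against 825 and 685, and medians of the list were -0.31 and 0.22, against 0.94 and 0.45 for accD. The listed phage-type polymerase, AT5G15700, was dim, at 108 and 61 against 91.8 and 132. The differences between the plastid genes and these nuclear genes were not tested.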

How the data were processed

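The deposited values are linear intensities, 1 per probe set, which the authors made with MAS5, per the submitters' processing notes. For its version and scaling target, nothing is stated in the sources used here. Group, replicate number and age came from the labels, which name biological replicates without saying that plants grew in separate batches. p-values thus measure the spread among these arrays, which may be technical, and their number limits precision.

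Of 22810 probe sets, 64 controls were left out. A platform annotation listed 14016, of which 13513 had 1 gene and 503 several, and the other 8794 are unnamed here. Of the first, 13436 matched a RefSeq gene table (TAIR10.1) by identifier, used only for names, chromosomes and gene order. Each gene was represented by its brightest probe set, leaving out 157. Before log2, a pseudocount of 7.99 was added, the signals' 10th percentile, with no signal filter. All 22589 probe sets were fitted with limma 3.58.1 in R 4.3.3 (group as the only term, mean-variance trend, two-sided, Benjamini-Hochberg, threshold 0.05). Degrees of freedom were 2 residual and 3.34 prior. The fit was tried on simulated data with independent noise on each array. That trial lacked the crossed grouping of these arrays, so it does not cover it. Named genes were the 6 members, their nearest measured plastid neighbours, measured genes of the fixed lists, and the 4 closest profiles per member among probe sets with a mean signal of at least 124. The closest plastid profiles and the division of the sum of squares were added after the data were seen. Members and lists were chosen with earlier results of these data known. Alternatives were other scalings, pseudocounts, filters, a variance model, the replicate block and leaving out each array. Deviations of arrays with the same replicate number correlated at -0.497, so the numbers were not used as pairs, although the spiked controls differed by number. Figures used matplotlib 3.10.9.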

Additional observations from a re-analysis of the deposited data

How the results depend on the processing

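Calls numbered 0, over all probe sets and over the listed partners, in each alternative fit, including the replicate block (0). A block with crossed replicate numbers, added after seeing the data, gave 0 calls. Over 81 alternative values of the labelled differences of the 6 genes, adjusted p lay between 0.99 and 1 (limma). With the replicate block the differences were unchanged, which the balanced design fixes in advance. All had adjusted p = 1 in that limma fit, so the block changed no call. Signs changed with quantile normalization for rpoB (0.06) and with centring on the plastid median, chosen after the data were seen, for rpoA (-0.02) and rpoC2 (-0.19). Leaving out each array, with the lone array of a group assumed to vary like the other group, gave ranges of -0.01 to 0.54 for rpoA, -0.48 to 0.15 for rpoB, -0.49 to 0.26 for rpoC1, -1.40 to 1.58 for rpoC2, -0.24 to 1.60 for clpP and -0.14 to 1.52 for accD. With quantile normalization rpoB became 0.30 within replicate 1, and within replicate 2 clpP became -0.83, rpoA -0.37 and rpoB -0.17. Centring on the plastid median, by its construction, moved the values within replicates 1 and 2 to 1.17 and -1.20 for rpoA, 0.21 and -1.10 for rpoB and 0.84 and -1.63 for rpoC1, and those within replicate 2 to -1.46 for clpP and -0.59 for accD. Centring on the median of all probe sets added 0.13 within replicate 1 and -0.01 within replicate 2. A second probe set was not run, since each of the 6 genes has 1, and filters at the 40th and 60th percentile of signal (124 and 327) gave no value for rpoB, the latter none for accD. Signal near background limits rpoB.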
